A study of Mus musculus with 6 samples.

Results

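The genes of the MHC class II antigen presentation pathway were examined in thyroid RNA of Slc26a4 knockout and Slc26a4 heterozygous mice. The members were 8 genes of the 18194 that the array's platform annotation names alone on at least 1 probe set. They are the chain genes H2-Aa, H2-Ab1 and H2-Eb1, the invariant chain Cd74, the peptide editors H2-DMa, H2-Oa and H2-Ob, and the transactivator Ciita. The group was picked on 1 measured value, the signal of H2-Oa, which was higher on all knockout arrays, so the knockout against heterozygous contrast of all members is given as a description and no member has a p-value here. The annotation assigned 16 probe sets to 1 of the 8 genes alone. A filter on the mean of all 6 arrays kept 12 of them, covering 7 genes, while the 3 probe sets of Ciita and 1 of the 4 of H2-Aa fell under it.

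Slc26a4 encodes pendrin, an anion exchanger on the apical side of the follicular cells of the thyroid. The study set thyroids without it against heterozygous controls at postnatal day 15, on Affymetrix mouse expression arrays. Per the labels, the thyroid was microdissected and its RNA was labelled by the Ovation protocol. There were 3 knockout arrays, with the sample numbers 2, 4 and 6, and 3 heterozygous arrays, with the numbers 1, 3 and 5. The labels state neither strain nor sex, nor which part of Slc26a4 was deleted, nor whether each array came from a separate mouse, so the spread within a genotype may be technical in part. The heterozygotes carry 1 mutant copy and are not wild type.

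A class II molecule is a pair of an alpha and a beta chain that displays peptides from endosomes to CD4 T cells. Cd74 fills the groove of a new pair and guides it to the endosome, H2-DM exchanges the last piece of Cd74 for a peptide, and H2-O holds H2-DM back, above all in B cells. Dendritic cells, B cells, macrophages and thymic epithelium carry the pathway as a rule, and interferon gamma can induce it in other cells, thyroid follicular cells among them. Ciita binds no DNA itself. It docks on the factors RFX, CREB and NF-Y, which sit on the X and Y boxes in front of class II genes.

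Of the 8 members, 6 lie in 1 stretch of chromosome 17, in the RefSeq order H2-Oa, H2-DMa, H2-Ob, H2-Ab1, H2-Aa and H2-Eb1. The class I genes Psmb9, Tap1, Psmb8 and Tap2 lie between H2-DMa and H2-Ob. RefSeq promoters (GRCm38.p6, 250 bases before to 50 after a start) were at hand for 5 members. The X box core was searched as GNAAC and the Y box core as TGATTGG, on both strands, with 15 to 35 bases between them and X first. These letters were chosen after the promoters had been read. The pair was found in front of H2-Oa, H2-Ob, H2-Aa and H2-Eb1 and in neither of the 2 promoters of H2-DMa, and in 0.569% of all 32851 promoters of this length. The Y box core alone was in 7.82% of them. The stretches are shown because they are a feature that H2-Oa, the gene behind the choice of members, has in common with the chain genes. Capitals mark the 2 cores, each sequence runs 5′ to 3′ on the gene's strand, and all 4 end upstream of the annotated start.
H2-Oa: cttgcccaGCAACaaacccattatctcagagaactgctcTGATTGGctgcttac
H2-Ob: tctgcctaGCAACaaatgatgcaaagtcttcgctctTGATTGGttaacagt
H2-Aa: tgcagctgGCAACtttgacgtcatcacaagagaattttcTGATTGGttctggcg
H2-Eb1: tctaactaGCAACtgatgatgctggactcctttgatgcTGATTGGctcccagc
They lie at chr17:34092295-34092348 (plus strand) for H2-Oa, chr17:34238810-34238860 (plus) for H2-Ob, chr17:34287859-34287912 (minus) for H2-Aa and chr17:34305768-34305820 (plus) for H2-Eb1. The cores were 26 bases apart in H2-Oa and H2-Aa, 25 in H2-Eb1 and 23 in H2-Ob. The first base of the Y core lay 45 bases before the annotated start in H2-Oa, 50 in H2-Aa, 59 in H2-Ob and 61 in H2-Eb1. A match of letters describes the sequence and is not a measured binding site. A missing match, as for H2-DMa, does not show that such boxes are absent, since they may differ in letters.

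Levels below are the deposited signals, linear intensities that had been scaled to the same trimmed mean on each array. Bacterial control probe sets reached at most 22.9, which serves as the background. Between 67.5% and 73.8% of the probe sets of an array lay above it, and the median signal of an array was 78.1 to 104, highest on knockout 6. Differences are knockout minus heterozygous on a log2(signal + 16.7) scale, with the standard error and 95% interval of a limma fit over all 27022 probe sets above the filter. That fit called 0 of them at an adjusted p of 0.05, which is 0% for members and all probe sets alike. An unadjusted p under 0.05 (limma) was reached by 138. That is fewer than such a cut passes on average when no probe set differs, so the fit may be conservative here. The cause was not tested. In bulk tissue, fewer cells of a type and less RNA per cell cannot be told apart. Knockout 4 stood apart from the other 5 arrays by thymus transcripts, whose values are given with the cell type markers.

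The 12 member probe sets above the filter had the higher mean in knockout thyroid in all 12 cases, by 0.17 to 0.66 on the log2 scale with a median of 0.29, where the median over all tested probe sets was -0.0021. The 95% interval included 0 for 11 of them, and the exception was H2-Oa, by whose signal the group was chosen. The heterozygous arrays were not alike. Heterozygous 1 was the highest of its genotype for all 12 probe sets and above the lowest knockout array for 10, while heterozygous 3 and 5 both lay under every knockout array for 11. All 3 knockout arrays lay above all 3 heterozygous arrays for 2 of the 12, and below them for 0. Over all 27022 probe sets, that complete order was seen for 1.64% in the direction of higher knockout signal and for 2.04% in the direction of lower. The order depended on the scaling: after quantile normalization it held for 0 of the 12, and after cyclic loess normalization for 1, H2-Ob.

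**Figure D1:**
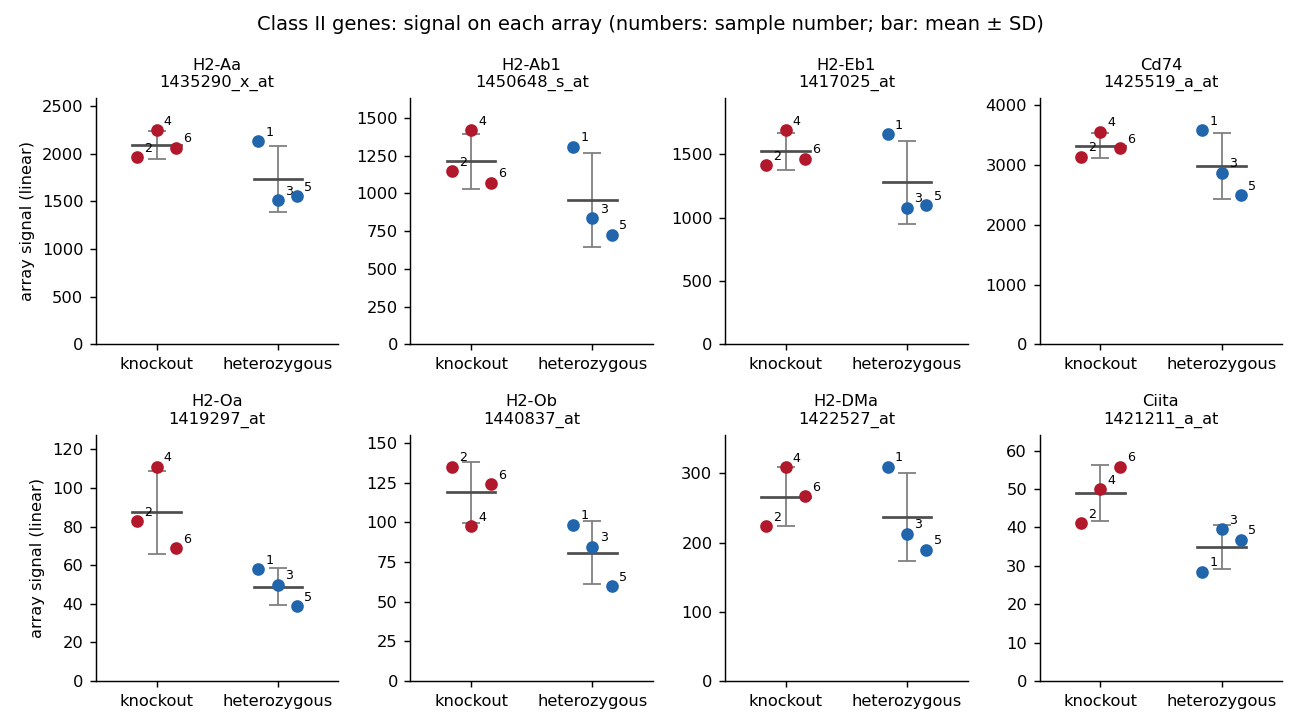
Signal of the 8 genes on each array, by the probe set of the highest mean (linear axis from 0, a point per array with its sample number, line and bar the mean ± SD of 3 arrays). Heterozygous 1 sits within or just above the knockout arrays for H2-Aa, H2-Ab1, H2-Eb1, Cd74 and H2-DMa, and is the lowest point for Ciita at 28.4.

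H2-O, the inhibitor of peptide exchange, is a pair of H2-Oa and H2-Ob. H2-Oa (1419297_at) read 82.8, 111 and 68.7 on knockouts 2, 4 and 6, against 58.0, 49.9 and 38.6 on heterozygous 1, 3 and 5. Every value was above background, the groups did not overlap, and the gap between the nearest arrays, knockout 6 and heterozygous 1, was 1.18-fold. The means were 87.5 ± 21.5 in knockout and 48.8 ± 9.75 in heterozygous thyroid (SD, n = 3 each), and the knockout minus heterozygous difference was 0.66 ± 0.25 (SE; interval 0.09 to 1.23). These are the values by which the group was chosen, so they support nothing by themselves. With each array left out in turn the difference ran from 0.50, without knockout 4, to 0.79, without knockout 6. After quantile or cyclic loess normalization the difference was 0.65 and 0.68, but the 2 groups of arrays overlapped under both.

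H2-Ob, the beta chain of H2-O, read 135, 97.4 and 124 on knockouts 2, 4 and 6 by probe set 1440837_at, against 98.5, 84.6 and 59.6 on heterozygous 1, 3 and 5. Knockout 4 was the lowest knockout array here and fell just short of heterozygous 1, at 0.989 of its signal, so the groups overlapped by that 1 array. The means were 119 ± 19.3 in knockout and 80.9 ± 19.7 in heterozygous thyroid, with a difference of 0.48 ± 0.23 (SE) and an interval of -0.05 to 1.02. H2-Oa and H2-Ob thus ran opposite ways on knockout 4, the highest of the 6 arrays for H2-Oa and the fourth highest for H2-Ob. The difference of H2-Ob was 0.60 without that array and 0.32 without heterozygous 5. It was 0.29 under limma's array weights, which were highest for knockout 4, at 2.48, against 0.684 and 0.423 for knockouts 2 and 6.

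H2-DMa encodes the alpha chain of H2-DM, the peptide exchange factor, and its probe sets gave unequal pictures. The brighter, 1422527_at, read 224, 309 and 267 on knockouts 2, 4 and 6, against 309.7, 213 and 189.7 on heterozygous 1, 3 and 5. Heterozygous 1 was the highest of all 6 arrays there, and the difference was 0.18 ± 0.22 (SE), with an interval of -0.33 to 0.68. Leaving out arrays gave 0.04 without heterozygous 5, 0.07 without knockout 4, 0.29 without knockout 2 and 0.37 without heterozygous 1. The dimmer, 1459872_x_at, read 144, 122 and 114 in knockout, against 111, 93.1 and 44.7 in heterozygous thyroid. Its groups did not overlap, by a gap of 1.03-fold, and its difference was 0.59 ± 0.29 (SE), with an interval of -0.09 to 1.27. Without heterozygous 5, whose 44.7 was far under the other arrays, that difference was 0.27. H2-DMb2, a beta chain of H2-DM outside the 8 genes, read 451, 703 and 584 in knockout, against 492, 327 and 498 in heterozygous thyroid by 1443687_x_at. The groups overlapped, and the difference of 0.39 ± 0.22 (SE) did not pass (limma, adjusted p = 1.0).

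The chain genes and Cd74 shared 1 pattern, in which heterozygous 1 read like the knockout arrays and heterozygous 3 and 5 read lower. Cd74, the invariant chain, lies on another chromosome than the chain genes. By 1425519_a_at it read 3139.5, 3563 and 3282 on knockouts 2, 4 and 6, against 3588, 2873 and 2494 on heterozygous 1, 3 and 5. Its difference was 0.17 ± 0.14 (SE), with an interval of -0.14 to 0.48. H2-Eb1, the beta chain of the E molecule (1417025_at), read 1414, 1691 and 1464 in knockout, against 1658, 1077 and 1098 in heterozygous thyroid. Its 2 lower heterozygous arrays lay well under the lowest knockout array, and heterozygous 1 lay within the knockout range. The difference was 0.28 ± 0.18 (SE), with an interval of -0.13 to 0.68. H2-Ea, the alpha partner of H2-Eb1, is listed by RefSeq as a transcribed pseudogene and was measured by 3 probe sets. It read 2.13 to 27.1 on the 6 arrays by 1422891_at and at most 6.86 by the other 2. Its brightest value, on knockout 6, was the 1 reading above background.

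H2-Aa, the alpha chain of the A molecule, was measured by 4 probe sets. The brightest, 1435290_x_at, read 1964, 2246 and 2061 on knockouts 2, 4 and 6, against 2129, 1513 and 1549.6 on heterozygous 1, 3 and 5. Its difference was 0.29 ± 0.14 (SE), with an interval of -0.05 to 0.62, and the 2 next probe sets gave 0.28 and 0.26. The fourth, 1443783_x_at, read only 19.8 to 34.8 on the 6 arrays, close to background, and was not tested. H2-Ab1, the beta chain of the same molecule, read 1147, 1419.8 and 1069.8 in knockout, against 1310.3, 834 and 726 in heterozygous thyroid by 1450648_s_at. Heterozygous 1 was again inside the knockout range, and the difference was 0.37 ± 0.22 (SE), with an interval of -0.14 to 0.88. The other H2-Ab1 probe sets, 1451721_a_at and 1425477_x_at, gave 0.23 and 0.40. Probe sets whose names end in x_at or s_at can also bind transcripts of related genes, which holds for all 4 H2-Aa probe sets and for 2 of H2-Ab1. It also holds for 1459872_x_at of H2-DMa and 1443687_x_at of H2-DMb2, described above.

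**Figure D2:**
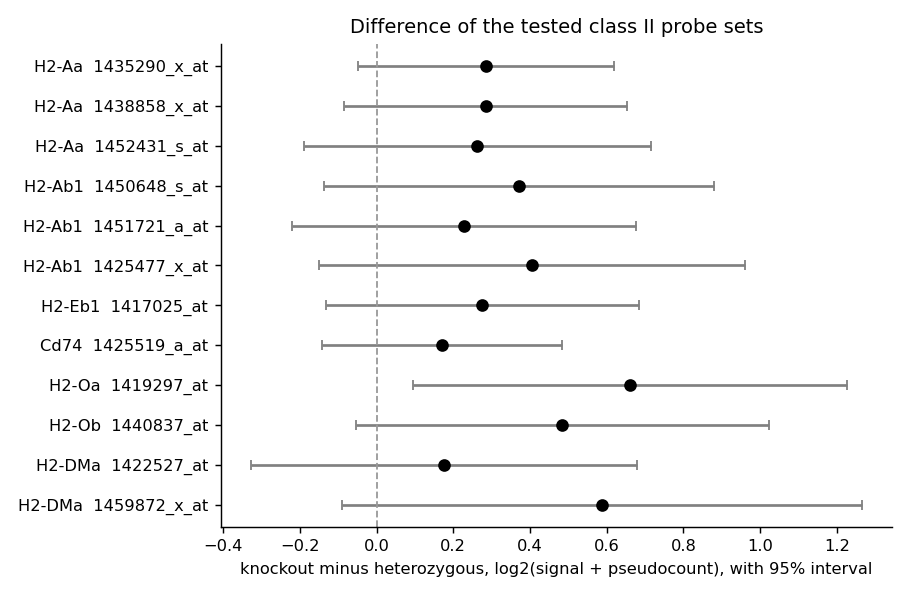
Difference of knockout minus heterozygous signal on the log2(signal + 16.7) scale, a point per tested probe set with its 95% interval from limma. All 12 points lie above 0, from 0.17 to 0.66, and only the interval of H2-Oa leaves 0 out.

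Ciita, the transactivator of the whole group, did not share that pattern. Its brightest probe set, 1421211_a_at, read 41.1, 50.0 and 55.8 on knockouts 2, 4 and 6, against 28.4, 39.5 and 36.8 on heterozygous 1, 3 and 5. All knockout arrays were above all heterozygous arrays, with 1.04-fold between the nearest, and the lowest array was heterozygous 1, where the chain genes were high. This probe set was under the filter and was not tested. Its difference by means was 0.35, while 1421210_at gave -0.06, with 22.9 to 38.6 on the 6 arrays, and 1447075_at was under background on all 6.

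Set on a common scale, each gene's deviation from its own mean of the 6 arrays was averaged over H2-Aa, H2-Ab1, H2-Eb1 and Cd74. This index was 0.05, 0.29 and 0.07 on knockouts 2, 4 and 6, against 0.23, -0.28 and -0.37 on heterozygous 1, 3 and 5. Over the 6 arrays H2-DMa followed it with a Pearson correlation of 0.94 by 1422527_at and 0.77 by 1459872_x_at. H2-Oa followed it with 0.81 and H2-Ob with 0.65. These correlations describe 6 arrays that share the genotype difference and each array's RNA and scaling.

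**Figure D3:**
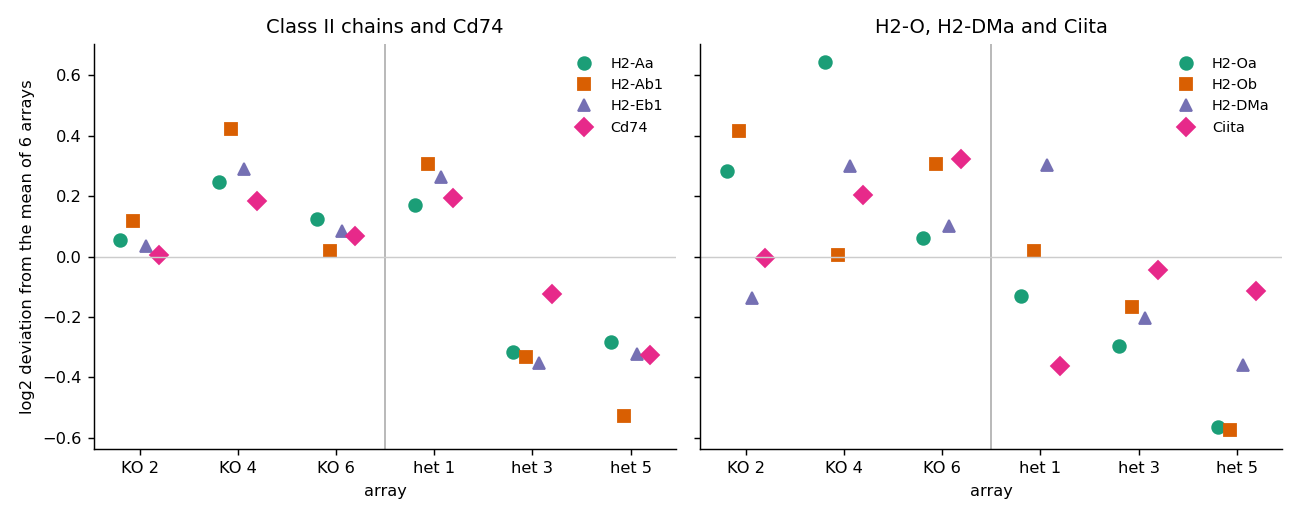
Log2 deviation of each gene from its own mean of the 6 arrays, with knockout arrays left of heterozygous arrays and a marker per gene. In the left panel heterozygous 1 stands above 0 for all 4 genes and heterozygous 3 and 5 below it, and in the right panel Ciita is lowest on heterozygous 1.

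Leaving out 1 array changed the size of the differences more than their direction. For the 12 tested probe sets none of 132 values under the alternatives had the opposite sign. These values cover 2 normalizations, 2 pseudocounts and array weights besides each array left out. Without heterozygous 1 the differences of the main probe sets became 0.31 for Cd74, 0.44 for H2-Aa, 0.48 for H2-Eb1 and 0.62 for H2-Ab1. All 3 knockout arrays then lay above both remaining heterozygous arrays for 11 of the 12. Heterozygous 1 was the highest of its genotype for all 12, so this count follows from the same values and supports nothing by itself. Over all 27022 probe sets, the 5 arrays without heterozygous 1 gave that complete order for 3.62%. Leaving out any other array gave it for 2 or 3 of the 12, and for 1203 to 1993 of all 27022. Without heterozygous 5 the differences were 0.05 for Cd74, 0.22 for H2-Aa, 0.18 for H2-Eb1 and 0.20 for H2-Ab1. Without knockout 4 they were 0.12, 0.23, 0.20 and 0.25 for the same genes.

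**Figure D4:**
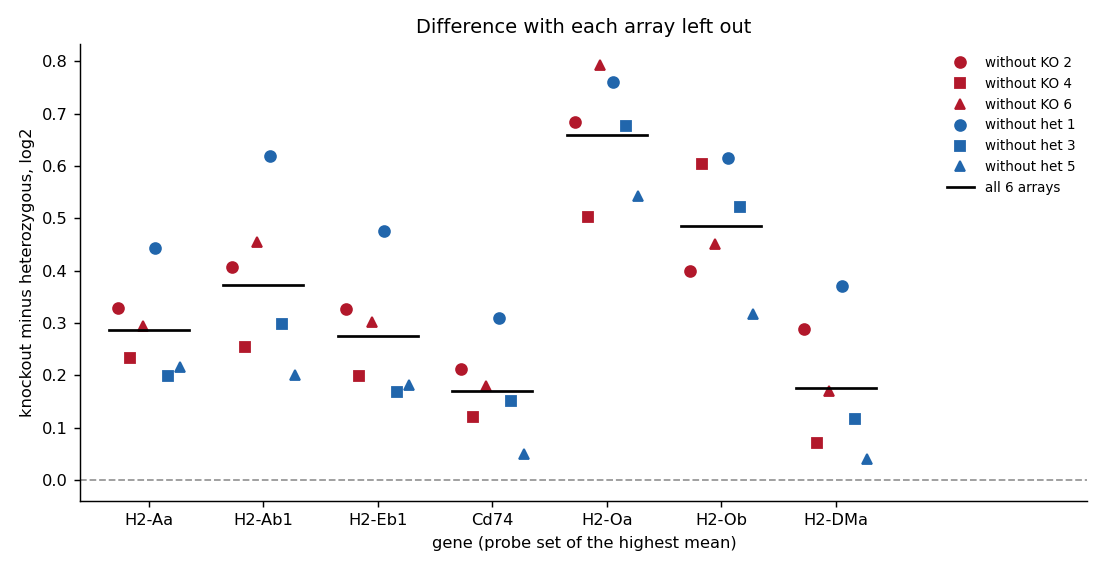
Knockout minus heterozygous difference (log2) of 7 genes with each array left out in turn, red for a knockout and blue for a heterozygous array, and a black line for all 6 arrays. Leaving out heterozygous 1 gives the highest value for H2-Aa, H2-Ab1, H2-Eb1, Cd74, H2-Ob and H2-DMa, and no point lies below 0.

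Cell types that carry class II were followed by marker lists, with the sum of each list's signals as a rough level. Macrophages were well seen, with 12 of 12 markers above background on all arrays and sums of 21501 to 24406 in knockout and 21818 to 25419.6 in heterozygous thyroid. The macrophage sum was lowest on knockout 2 and highest on heterozygous 5, the array on which the class II index was lowest. Csf1r, the receptor for the macrophage growth factor, read 3664, 4150.1 and 3744 in knockout, against 3747, 3617 and 4411 in heterozygous thyroid. None of the 12 macrophage genes passed the test (0 higher and 0 lower, limma), and 9 had the higher mean in knockout, with a median of 0.05.

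Markers of B cells and dendritic cells were mostly dim. Of 9 measured B cell genes, 4 were above background on all arrays, and Pax5, a transcription factor that defines the lineage, read at most 2.98. The B cell sums were 581 to 804 in knockout and 599 to 895 in heterozygous thyroid, lowest on knockout 6 and highest on heterozygous 5. The dendritic cell sums were 2824 to 3202 in knockout and 2768 to 3135 in heterozygous thyroid, mostly the signal of Zbtb46, which read 1983 to 2292. Of 10 dendritic cell genes, 3 were above background on all arrays (Zbtb46, Siglech and Clec10a). Of these 3 genes 1 was higher and 2 were lower in knockout, with a median of -0.04, and none passed (limma). Among the 7 dimmer genes, which were not tested, Ccr7, a homing receptor, differed by -0.34. The others were higher in knockout, from 0.02 for Batf3 to 0.41 for Itgax. The integrin Itgax, which differed most, was chosen here after its values were seen. It read 25.3, 28.8 and 35.4 in knockout, against 19.9, 16.1 and 18.9 in heterozygous thyroid. That is above background on all knockout arrays and under it on all heterozygous arrays. The 4 genes common to leukocytes summed to 7317 to 9284 in knockout and 7110.4 to 8151 in heterozygous thyroid, highest on knockout 4. All 4 were higher in knockout, with a median of 0.21, and none passed (limma). Coro1a, an actin-binding protein of leukocytes, differed by 0.31 and Ptprc, the surface phosphatase CD45, by 0.28. The part of these cells in the class II differences was not tested.

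Thymus tissue is a further source of class II, and many of its transcripts were highest on knockout 4. The 12 thymocyte and T cell markers summed to 238, 4629 and 232 on knockouts 2, 4 and 6, against 306 to 329 in heterozygous thyroid. The 8 thymic epithelium markers summed to 1729, 4639 and 954 on knockouts 2, 4 and 6, against 1117 to 1756 in heterozygous thyroid, and 3 of the 8 were above background on all arrays. The chemokine Ccl25 read 1742 on knockout 4 and 108 to 160.2 on the other 5 arrays, and the protease Prss16 read 753, against at most 15.0. Other members of the list stood out less or not at all. Ly75, an endocytic receptor, read 1704 on knockout 4 and 1387 on knockout 2. Foxn1, the factor that defines thymic epithelium, was near or under background and was not tested. By 1450508_at it read 4.38 on knockout 4 and 19.9 to 31.3 on the others. By 1456815_at it read 18.1 on knockout 4 and 2.01 to 19.0 on the others. On that array the class II genes stood less far out, with Cd74 at 1.11 times, H2-Aa at 1.12, H2-Eb1 at 1.18, H2-Ab1 at 1.28 and H2-Oa at 1.47 times the mean of the other 2 knockout arrays. H2-Ob was at 0.752 of it. Markers of thyroid follicular cells summed to 18499 to 19336 in knockout and 17545 to 21295 in heterozygous thyroid, highest on heterozygous 1 and lowest on heterozygous 5. How far either tissue moved the class II values was not tested.

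**Figure D5:**
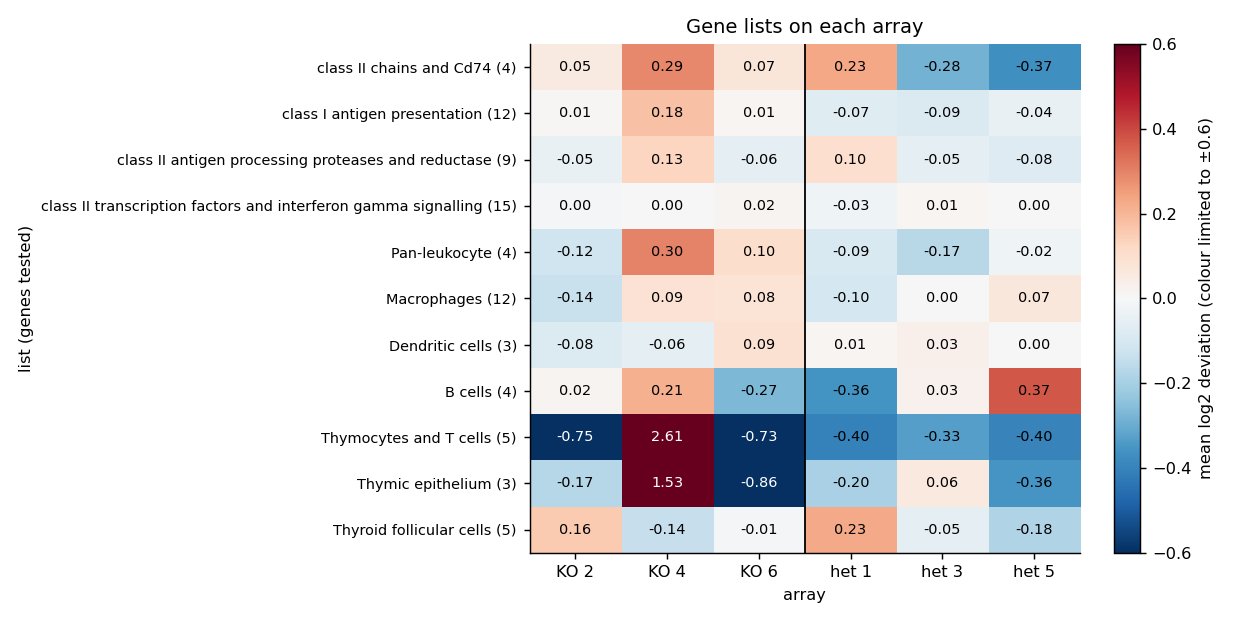
Mean log2 deviation of the tested genes of each list from their own means over the 6 arrays (rows: lists with the number of genes, columns: knockout arrays left of heterozygous arrays). The class II row is 0.23 on heterozygous 1 and -0.28 and -0.37 on heterozygous 3 and 5, and the thymocyte row reaches 2.61 on knockout 4.

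Of 9 tested genes for enzymes and their partners that prepare peptides for class II, 4 were higher and 5 lower in knockout thyroid, with a median of -0.0084, and none passed in either direction (limma). Ctss, the cathepsin that trims Cd74 in antigen presenting cells, was closest, at 2343, 2578 and 2505 in knockout, against 2273, 2177 and 1813 in heterozygous thyroid. Its groups did not overlap, and its difference of 0.25 ± 0.11 (SE) missed the threshold (limma, adjusted p = 1.0, against 0.0532 unadjusted). Ctsl, the cathepsin of cortical thymic epithelium, had the next smallest p and read 5168 ± 413 in knockout and 5513 ± 278 in heterozygous thyroid. Ifi30, the reductase that opens disulfide bonds of antigens, read 3771 ± 512 in knockout and 3776 ± 288 in heterozygous thyroid. The summed signal of the 9 genes was 38643 to 42477 in knockout and 38229 to 42277 in heterozygous thyroid.

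Among the factors that drive class II transcription and interferon gamma signalling, 6 of 15 tested genes were higher and 9 lower, with a median of -0.03, and none passed (limma). Rfxank, a subunit of the RFX complex on the X box, had the smallest p, at 231, 263 and 287 in knockout, against 229, 230.3 and 189.7 in heterozygous thyroid. Its lowest knockout value and highest heterozygous value were almost equal, and the difference was 0.25 ± 0.17 (SE). A dimmer Rfxank probe set, 1425670_at, gave 0.20, with no overlap. The dimmest, 1455371_at, gave -0.23, and the mean over all Rfxank probe sets gave 0.07. The other RFX subunits differed by -0.08 (Rfx5) and -0.0019 (Rfxap). The NF-Y genes, whose product binds the Y box, differed by -0.08 (Nfya), -0.05 (Nfyb) and 0.01 (Nfyc). Ifng itself read 1.35 to 12.7 on the 6 arrays, under background on all. The myeloid factor Spi1 read 62.6, 48.4 and 90.3 in knockout, against 38.1, 57.2 and 59.4 in heterozygous thyroid, with overlap.

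Genes of class II turnover and costimulation had 2 higher and 4 lower of 6 tested, with a median of -0.10, and none passed (limma). Marchf8, a ubiquitin ligase of the family that removes class II from the surface, read 1944 ± 283 in knockout and 2186 ± 369 in heterozygous thyroid. Icosl, a costimulatory ligand, read 587 ± 88.0 in knockout and 659 ± 144 in heterozygous thyroid. Cd86, another such ligand, read 168 ± 25.2 in knockout and 165 ± 29.3 in heterozygous thyroid.

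The class I pathway had 9 higher and 3 lower of 12 tested genes, with a median of 0.09, and none passed at an adjusted p of 0.05, with 1 at an unadjusted p under 0.05 (limma). That gene was Nlrc5, the class I counterpart of Ciita, at 129.6, 191 and 156 on knockouts 2, 4 and 6, against 81.4, 87.0 and 133 on heterozygous 1, 3 and 5. The groups overlapped by heterozygous 5, and the difference was 0.59 ± 0.24 (SE; limma, unadjusted p = 0.0369, adjusted p = 1.0). Psmb8, an immunoproteasome subunit, read 362, 513 and 408 in knockout, against 313, 345 and 331 in heterozygous thyroid, with no overlap. Its difference was 0.35 ± 0.16 (SE) and missed the threshold (limma, adjusted p = 1.0, against 0.0671 unadjusted). Its neighbours in the class II stretch, the peptide transporter gene Tap1 and the immunoproteasome gene Psmb9, differed by 0.24 and 0.27, with overlap, and Tap2 by 0.08. The mean over all 4 Tap1 probe sets gave -0.11, but all except the brightest lay under the filter. Of those, 1449803_x_at and 1420274_at were under background on all arrays. The class I chain gene H2-K1 read 3329 ± 257 in knockout and 3157 ± 291 in heterozygous thyroid, and B2m, the light chain of class I, read 8929 ± 504 in knockout and 8918 ± 199 in heterozygous thyroid. Heterozygous 1 was high for the class II chains. On the class I list it stood at -0.07 by the mean deviation and at 0.02 by the median. Its summed class I signal was the highest of the 6 arrays, 41261 against 41065 on knockout 4, and Calr alone gave 11387 of it. Heterozygous 1 was the highest array for Calr, Pdia3 and Tapbp, and the lowest for Psmb8, Psmb9, Psmb10 and Nlrc5. It was neither for the rest of the list.

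The genes whose pattern over the 6 arrays was most like the class II index were found among 5345 tested probe sets with an SD of at least 0.3 on the log2 scale. First was Retnla, a secreted resistin-like protein of alternatively activated macrophages and fat, with a Pearson correlation of 0.97. It read 3347, 4192 and 3132 on knockouts 2, 4 and 6, against 3473, 1967 and 2126 on heterozygous 1, 3 and 5, so its heterozygous 1 value also lay within the knockout range. Then came the lens filament gene Bfsp2 (0.92), the myelin lipid enzyme Ugt8a (0.92), the Rab regulator Tbc1d15 (0.91) and Them6 (0.90). Ugt8a was highest on heterozygous 1, at 766, against 38.4 to 497 on the other 5 arrays. With 6 arrays and this many probe sets the order is a description and carries no p.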

How the data were processed

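Thyroid RNA of 3 Slc26a4 knockout and 3 heterozygous samples was measured on Affymetrix arrays. The deposited values are linear intensities made with GCOS, per the submitters' processing notes, and the authors had scaled them, since the mean after trimming 2% at each end was 500.002 on every array. GCOS settings and detection calls were not used here. Gene names came from the array's platform annotation, and 0 of 232 member and list symbols differed from RefSeq by gene identifier.

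A pseudocount of 16.7, the 25th percentile of the pooled signals, was added before taking log2. The 64 control probe sets were left out, and 27022 of 45037 others had a mean above the 40th percentile (a signal of 43.5). Genotypes were tested by limma 3.58.1 under R 4.3.3 (lmFit, eBayes with a trend, Benjamini-Hochberg over all tested genes and probe sets). The fit was tested on simulated data. A gene stands for its probe set of the highest mean. All member probe sets are given, and from each list of pathway genes those of the smallest p were named. Cell type markers, and other genes of the lists, were named after their values were seen. Of the genes listed, those without a probe set of their own were not analysed here. Members, lists and alternatives were chosen with earlier results of these data known. Alternatives were 2 normalizations, 2 pseudocounts, 2 filters, 2 eBayes settings, array weights, each array left out and, for lists, the mean of a gene's probe sets.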

Additional observations from a re-analysis of the deposited data

How the results depend on the processing

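The count of probe sets past an adjusted p of 0.05 was 0 in limma under all alternatives, and those at an unadjusted p under 0.05 numbered 95 to 934. The number with all knockout arrays above all heterozygous arrays was 443. It was 992 with no filter, where more probe sets are tested, 277 with the filter at the 60th percentile, where fewer are, and 979 to 1993 with 1 array left out, where fewer arrays have to be in order. None of the 176 differences of the 16 member probe sets under the alternatives moved by more than the SD between arrays, and 5 turned sign, all of them among the 4 probe sets under the filter. H2-Oa and H2-DMa (1459872_x_at) lost the complete order of arrays after quantile and after cyclic loess normalization, and the cause was not tested. The difference of H2-Oa was 0.41 with 4 times the pseudocount and 0.78 with 0.25 times, as the scale itself sets. When every probe set of a gene was averaged, 4 of 57 genes moved by more than their SD (Ciita to 0.15, Rfxank to 0.07, Nfya to 0.04, Tap1 to -0.11). No paired analysis was run, since the labels name no pairs of knockout and heterozygous samples. With 3 arrays a genotype, 11 of the 12 intervals of the tested members included 0.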

Other observations

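A few probe sets are assigned to a class II gene together with a neighbour and were kept out of the description of the members. Those shared by H2-DMb1 and H2-DMb2, the near-identical beta chains of H2-DM, read 335 ± 12.9 in knockout and 349 ± 77.1 in heterozygous thyroid (1418638_at) and 239 ± 37.7 in knockout and 221 ± 64.7 in heterozygous thyroid (1449580_s_at), differences of -0.04 and 0.13 on the log2 scale. A probe set shared by H2-Ob and Gm20506, a long noncoding RNA in RefSeq, (1422201_at) ran against the H2-Ob probe set described above. It read 34.7, 26.1 and 31.9 on knockouts 2, 4 and 6, against 40.5, 67.7 and 50.9 on heterozygous 1, 3 and 5, with no overlap and a difference of -0.54. It lay under the filter and was not tested.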
